A study of Mus musculus with 6 samples.

Results

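The cytokines interleukin-1 alpha, interleukin-1 beta, interleukin-6, interleukin-10, the p40 chain of interleukins 12 and 23, interleukin-18 and tumour necrosis factor are encoded by Il1a, Il1b, Il6, Il10, Il12b, Il18 and Tnf, and genotype-specific open chromatin around these 7 genes was examined in microglia, the resident macrophages of the brain. A peak was taken as a cytokine gene peak when its midpoint lay inside the span of 1 of the 7 genes, or when, among all protein-coding genes of the mouse build mm10, an end of 1 of them was the nearest gene end within 100 kb. This gave 10 of the 12105 peaks, 7 of the 8615 peaks specific to the conditional knockout (cKO) and 3 of the 3490 specific to the control (cWT). Both genotypes were C57BL/6J mice, aged 8 weeks per the labels, that carried Tmem119-CreERT2, a recombinase expressed from a microglial gene and active only with tamoxifen. The cKO mice also carried loxP-flanked Mir137 on both alleles, whereas the cWT mice had Mir137+/+, and tamoxifen was injected for 7 days starting at 7 to 8 weeks of age. Accessibility was measured by ATAC-seq, in which Tn5 transposase cuts open DNA, in 3 libraries per genotype (6 in all) of about 50000 sorted cells each; the series gives 4 mice without tying libraries to animals.

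Only 1 list of genotype-specific peaks per genotype was used, with no value per library, so depth and the spread between replicates are unknown and no difference at a cytokine gene could be tested. How a peak came to be called specific is not stated. No specific peak lay within 100 kb of Mir137 in either list, so the lists do not measure the deletion. Within 100 kb of Tmem119, the gene that drives the recombinase in both genotypes, lay 4 cKO-specific peaks and 1 cWT-specific peak. Among 8 marker genes of microglia, 5, Tmem119 among them, had a cKO-specific and 1 a cWT-specific peak (62.5% and 12.5%), with none at Csf1r, Cx3cr1 or Olfml3. Among 25 markers of neurons, glia, endothelium, lymphocytes and other macrophages the numbers were 11 and 5 (44.0% and 20.0%, where 22.7% and 11.6% of coding genes had one). In cKO these ranged from 1 of 6 neuronal genes to 3 of 4 astrocyte genes. Their part in the cytokine results was not tested.

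These cytokines are the early alarm signals of macrophages. Pattern receptors and NF-kB switch on Il1b, Il6, Il12b and Tnf, interleukin-1 beta and interleukin-18 are made as precursors that caspase-1 cuts in the inflammasome, and interleukin-10 restrains the response. Resting microglia express most of them at low levels.

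The sequences before the starts of 4 genes are shown, 3 because a cKO-specific peak lay within 1000 bp of the start (Il1a, Il6 and Il18). Il1b is shown because its sequence holds the complement of the seed of the microRNA whose gene is loxP-flanked in cKO. They are the 250 bases upstream of the start in RefSeq, GRCm38.p6, read 5′ to 3′ in the direction of transcription. The Il1a span reaches 129310186, beyond this start, so most of the bases printed for Il1a lie inside the annotated gene. The Il1b span ends at 129371164, so only the printed bases nearest its start do. Capitals mark matches to the motifs described further on. The seed complement at Il1b lies before the start, outside the annotated gene, and was not read as a target site in its transcript.
Il1a, chr2:129309973-129310222, minus strand: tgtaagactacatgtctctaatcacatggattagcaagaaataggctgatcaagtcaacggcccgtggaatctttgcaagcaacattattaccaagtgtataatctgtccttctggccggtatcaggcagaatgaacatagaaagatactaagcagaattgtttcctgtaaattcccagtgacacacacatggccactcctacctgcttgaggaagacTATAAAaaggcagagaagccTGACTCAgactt
Il1b, chr2:129371140-129371389, minus strand: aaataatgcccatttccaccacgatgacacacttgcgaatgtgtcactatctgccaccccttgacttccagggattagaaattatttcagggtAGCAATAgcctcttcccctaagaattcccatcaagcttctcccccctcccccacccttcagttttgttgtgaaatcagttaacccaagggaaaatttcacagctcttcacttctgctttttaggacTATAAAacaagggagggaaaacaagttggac
Il6, chr5:30012864-30013113, plus strand: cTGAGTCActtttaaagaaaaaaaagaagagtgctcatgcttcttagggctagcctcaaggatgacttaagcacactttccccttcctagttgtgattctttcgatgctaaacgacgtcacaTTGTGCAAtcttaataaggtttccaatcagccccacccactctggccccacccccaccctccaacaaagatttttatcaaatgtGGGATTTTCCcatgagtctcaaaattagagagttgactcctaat
Il18, chr9:50554450-50554699, plus strand: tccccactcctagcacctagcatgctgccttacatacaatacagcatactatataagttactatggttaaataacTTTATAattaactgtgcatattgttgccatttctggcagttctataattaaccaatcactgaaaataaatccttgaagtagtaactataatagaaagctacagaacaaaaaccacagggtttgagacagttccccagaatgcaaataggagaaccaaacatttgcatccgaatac
The mature microRNA that cKO microglia are designed to lose is shown with its seed, bases 2 to 8, in capitals.
mmu-miR-137-3p: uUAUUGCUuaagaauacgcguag

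Specific peaks were found at 5 of the 7 genes, where most coding genes had none in either list. A cKO-specific peak was assigned to Il1a, Il1b, Il6 and Il18, which is 4 of 7 genes (57.1%), where 22.7% of 21627 coding genes had one. A cWT-specific peak was assigned to Il6 and Il12b, which is 2 of 7 genes (28.6%), where 11.6% of coding genes had one. Il6 alone had peaks in both lists, as had 6.02% of coding genes. Il10 and Tnf had none. The share of cKO-specific peaks was 70.0% of the 10 cytokine gene peaks (exact Clopper-Pearson 95% interval 34.8 to 93.3%, counting error only), close to the 71.2% of all 12105 peaks. In both lists the share of cytokine genes with a peak was above that of coding genes, at counts of 4 and 2 of 7 genes. Since the genes were picked with results of these data known, no test was made.

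**Figure D1:**
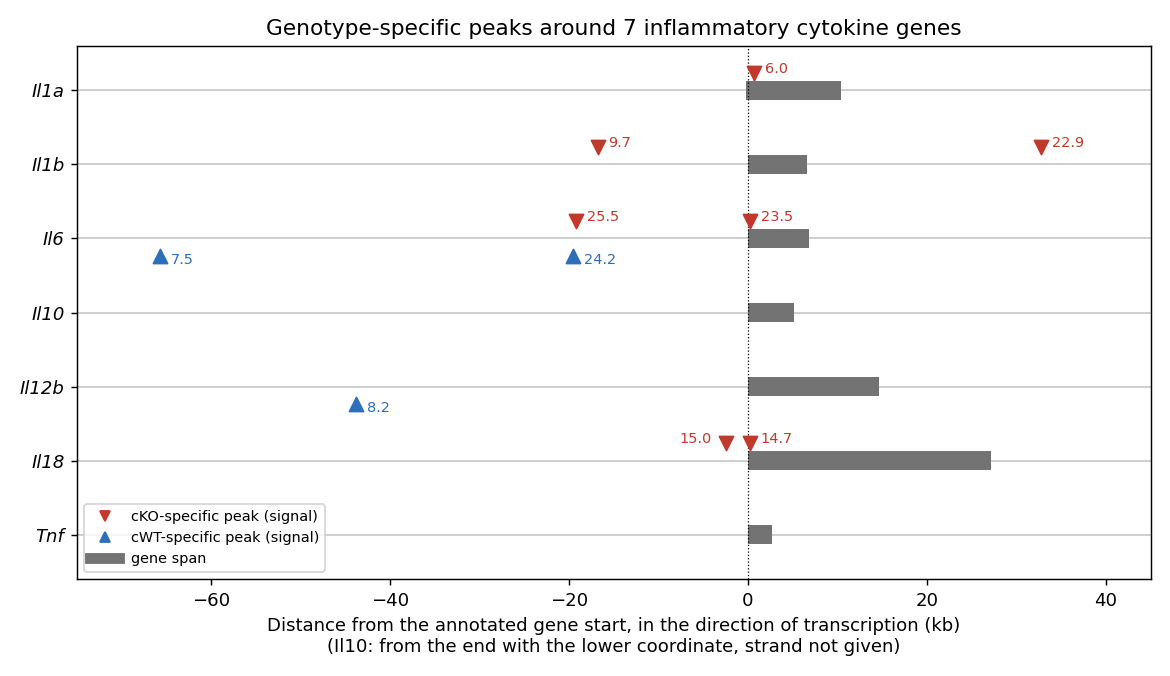
Positions of the 10 genotype-specific peaks around the 7 cytokine genes (rows), in kb from the annotated start in the direction of transcription, with the authors' signal beside each peak; grey bars are gene spans. The cKO-specific peaks (red, above the line) include 3 just past the starts of Il1a, Il6 and Il18, and the 3 cWT-specific peaks (blue, below) lie 19.5 kb or more upstream of Il6 and Il12b.

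At the cytokine genes, the peaks near gene ends were cKO-specific ones. Of the 7 cKO-specific peaks, 3 lay inside a cytokine gene with the midpoint within 1000 bp of a gene end, at 3 of the 7 genes, where 5.11% of coding genes had such a cKO-specific peak. None of the 3 cWT-specific peaks did, where 2.48% of coding genes had one. Counted per peak over the whole lists, the order was the other way, with 13.7% of cKO-specific and 15.9% of cWT-specific peaks within 1000 bp of a gene end. The median distance from a peak's midpoint to the nearer gene end was 2425 bp for the cKO-specific and 43773 bp for the cWT-specific cytokine peaks. Over the whole lists the medians lay closer together, at 12412 bp in cKO and 15635.5 bp in cWT. With 7 and 3 peaks this is a description of these peaks.

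Il1a and Il1b, the genes of the original interleukin-1 pair, lie next to each other on chromosome 2 and had 3 cKO-specific peaks and no cWT-specific peak. The Il1a peak (chr2:129309111-129309425) is 315 bp wide and begins 547 bp past the annotated start at 129309972, inside the gene (129299609 to 129310186). Its signal in the authors' list was 5.99, at the 0.406th percentile of the cKO list, and its p-value 0.946. It was the weakest of the 7 cKO-specific cytokine peaks by signal.

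The lower of the Il1b peaks (chr2:129338123-129338563) lies in the 54382 bp between the genes, 28371 bp upstream of the Il1a start and 26226 bp beyond the downstream end of Il1b. It is 441 bp wide, with a signal of 22.9 and a p-value of 0.615. The other (chr2:129387725-129388128) is 404 bp wide and lies 16787 bp upstream of the Il1b start, with a signal of 9.75 and a p-value of 0.964. The Il1b gene itself (129364569 to 129371164) held no specific peak. The intergenic peak had a higher signal than the upstream one and lies almost midway between the genes, so its assignment to Il1b and not Il1a rests on a small difference in distance. Among cWT-specific peaks the nearest to Il1b lay 168133 bp away and was assigned to F830045P16Rik.

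Il18, whose product induces interferon-gamma in lymphocytes, had 2 cKO-specific peaks and no cWT-specific peak. The first (chr9:50552043-50552508) is 466 bp wide and lies 2425 bp upstream of the start at 50554700, with a signal of 15.0 and a p-value of 0.625. The second (chr9:50554765-50555001) is 237 bp wide and covers bases 65 to 301 past the start, inside the gene, with a signal of 14.7 and a p-value of 0.704. Both also lie within the span of Bco2, a carotenoid oxygenase gene that overlaps the Il18 start. Their signals were close to each other and a little below the median of the cKO list, 16.5.

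The Il18 peaks were part of a longer run. From the peak assigned to Pts, a tetrahydrobiopterin synthesis gene, to the last assigned to Sdhd, a succinate dehydrogenase subunit gene, 7 cKO-specific peaks lay within 70.6 kb (chr9:50522646-50593262): 1 at Pts, 2 at Bco2, 2 at Il18 and 2 at Sdhd. The peak names carry numbers that rise along each chromosome and were read as places in the genotype's full list. By these, 7 of the 11 numbered cKO peaks of this stretch were specific, where 25.8% of all numbered cKO peaks were. The ends of the stretch are specific by construction, and the stretch was chosen after its values were seen. No cWT-specific peak lay in it.

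Il6 was the member with the most specific peaks, 2 in each list. A cKO-specific peak (chr5:30013153-30013597) is 445 bp wide and covers bases 39 to 483 past the start at 30013114, inside the gene. Its signal was 23.5 and its p-value 0.422, the lowest of the 10 cytokine peaks, at rank 705 of 8615 in the cKO list. It overlapped the RefSeq promoter window, which runs from 250 bases before to 50 bases after the start, by 11 bp. Such an overlap was found at 1 of the 6 cytokine genes with a window in RefSeq and at 2.44% of 26794 genes for cKO-specific peaks; it was found at 0 of the 6 for cWT-specific peaks, against 1.19% of genes. The midpoint also lies within A230098N10Rik, a noncoding gene.

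Upstream of Il6 the 2 genotypes had peaks side by side. The second cKO-specific peak (chr5:29993658-29994129) is 472 bp wide, with its midpoint 19221 bp upstream of the start, a signal of 25.5 and a p-value of 0.520. A cWT-specific peak (chr5:29993445-29993712) is 268 bp wide, with its midpoint 19536 bp upstream, a signal of 24.2 and a p-value of 0.769. They share 55 bp, 11.7% of the cKO-specific and 20.5% of the cWT-specific peak, and together span 685 bp. Each stood high by signal within its own list, at the 87.3th percentile in cKO and the 89.5th in cWT. Deposited as specific to opposite genotypes, they adjoin within 1 short region, with midpoints 315 bp apart. The share of such pairs over the whole lists is not given here, and at Il18r1 peaks of opposite lists lay 9 bp apart. The other cWT-specific peak (chr5:29947144-29947617) is 474 bp wide and lies 65734 bp upstream, the farthest of the 10 from its gene, with a signal of 7.48 and a p-value of 0.974. On the side of the gene's end, the next cKO-specific peak belonged to Tyms, the thymidylate synthase gene, and Dnajb6, a chaperone gene on the upstream side, had 2 cKO-specific peaks. Neither had a cWT-specific peak.

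Il12b was the only one of the 7 genes with a peak in cWT and none in cKO. The peak (chr11:44356075-44356506) is 432 bp wide, lies 43773 bp upstream of the start at 44400063 and had a signal of 8.23 and a p-value of 0.977, the highest p-value of the 10. The gene sits at the edge of a long stretch without coding genes, 498812 bp to Adra1b, an adrenergic receptor gene, on the upstream side and 39893 bp to Ublcp1 on the other. Neither neighbour had a specific peak. Among cKO-specific peaks the nearest lay 81722 bp from the gene and was assigned to Rnf145, a ubiquitin ligase gene.

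Il10, the anti-inflammatory cytokine among the 7, had no specific peak in its span (chromosome 1, 131019845 to 131024970) or assigned to it. The nearest cKO-specific peak lay 70852 bp away and was assigned to Mapkapk2, which encodes a kinase that promotes the stability of cytokine mRNAs, with a signal of 9.90 and a p-value of 0.825. The nearest cWT-specific peak lay 199055 bp away, assigned to Fcamr. Il19, an interleukin-10 family gene on the other side, had none.

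Tnf had no specific peak either, but the stretch in which a peak could be assigned to it is short. Between Ltb and Lta, the lymphotoxin genes on either side, it measured 4.75 kb, compared with 39.0 kb for Il1a, 45.2 kb for Il18, 56.7 kb for Il10, 77.1 kb for Il1b, 116 kb for Il6 and 135 kb for Il12b. Counts per gene should be read against these lengths. The nearest cKO-specific peak was 9938 bp from Tnf, assigned to Lst1, a leukocyte gene, with a signal of 16.0 and a p-value of 0.592. The nearest in cWT lay 40798 bp away, assigned to Ddx39b, an RNA helicase gene, with a signal of 32.1 and a p-value of 0.771. Ltb and Lta had no specific peak.

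**Figure D2:**
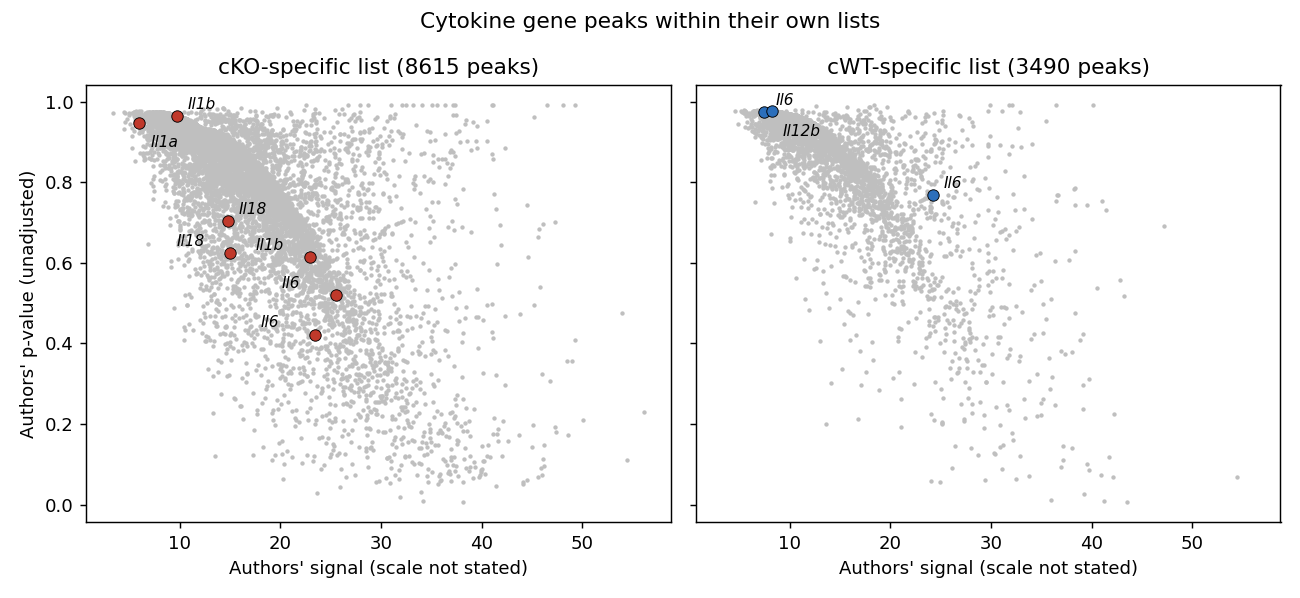
Authors' signal (horizontal) and unadjusted p-value (vertical) of every peak in the cKO list (left, grey) and the cWT list (right, grey), with the cytokine gene peaks coloured and named. The Il6 peaks have the highest signals in each list's cytokine set (25.5 in cKO and 24.2 in cWT), and the lowest p-value among the coloured points is 0.422.

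Within their own lists the cytokine peaks ranged from near the bottom to well above the median by signal. The 7 cKO-specific peaks had signals of 5.99 to 25.5 with a median of 15.0, and their list a median of 16.5. The 3 cWT-specific peaks had signals of 7.48 to 24.2 with a median of 8.23, and their list a median of 13.7. By p-value the cKO-specific peaks had a median of 0.625 (list 0.818) and the cWT-specific peaks one of 0.974 (list 0.886). In the authors' deposited table the adjusted p-value was 0.979 for each of the 7 and 0.981 for each of the 3, the median of each list, and none of the 10 carried the name primary that 243 cKO and 48 cWT peaks have. The median width was 441 bp in cKO (list 314 bp) and 432 bp in cWT (list 322 bp), with 237 bp at the Il18 start as the narrowest.

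A gene without a specific peak is not a gene without open chromatin, since most numbered peaks of each genotype are outside the lists. Around Tnf, 11 numbered cKO peaks in 69.5 kb and 20 numbered cWT peaks in 177 kb separated the flanking specific peaks of each list. Around Il10 there were 7 such unlisted peaks in 545 kb in cKO and 13 in 449 kb in cWT, and around Il12b 8 in 853 kb in cKO and 7 in 190 kb in cWT. Where these peaks lie inside the stretches was not analysed here. Over Il1b, 3 unlisted cKO peaks lay in the 49.2 kb between its specific peaks.

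At Il6 and Il18 the numbers give a finer picture. The Il6 cKO-specific peaks are numbers 23373 and 23374, so by this reading no other numbered cKO peak lies in the 19023 bp between them, which hold the bases before the start. The Il6 cWT-specific peaks are numbers 20100 and 20102, with 1 unlisted peak between. The Il18 cKO-specific peaks are numbers 31506 and 31508, so 1 unlisted cKO peak lies among the 2256 bp between them, which hold the start. In the cWT list, 28 unlisted peaks lay in the 1772 kb around Il18 that hold no specific peak.

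**Figure D3:**
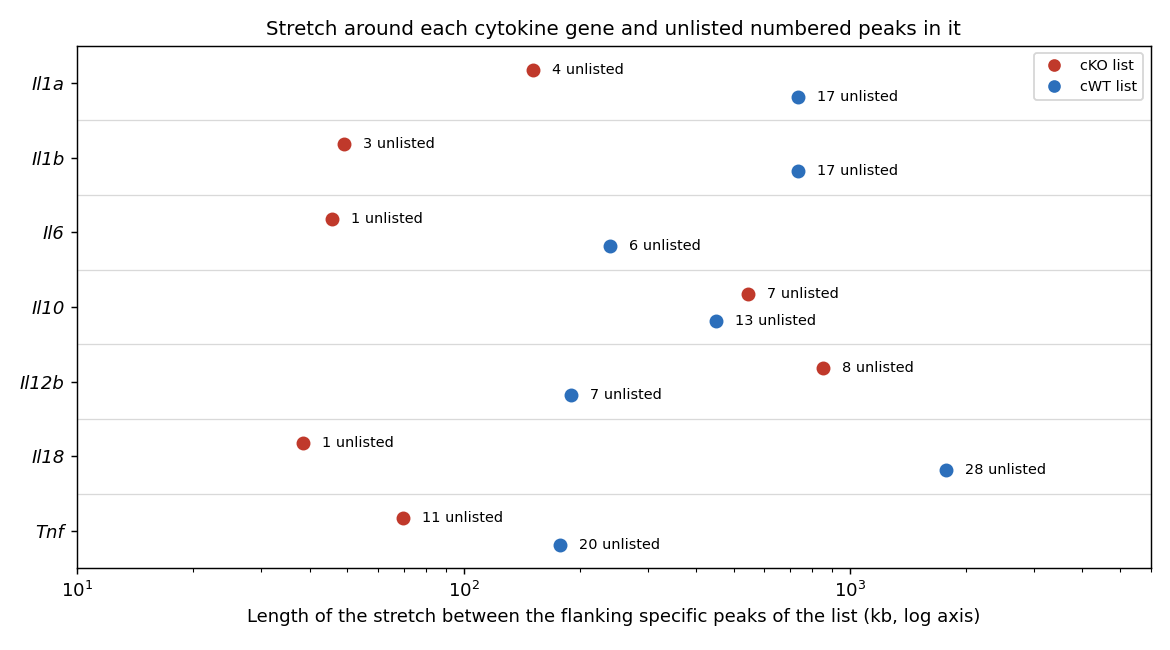
Length of the stretch between the specific peaks that flank each cytokine gene, in the cKO list (red, upper) and the cWT list (blue, lower), on a log axis in kb, with the number of unlisted numbered peaks inside. For Il18 the stretch is 38.4 kb with 1 unlisted peak in cKO and 1772 kb with 28 in cWT. Over the genome, 25.8% of numbered peaks were specific in cKO and 12.1% in cWT.

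The promoter windows of the 6 genes with an entry in RefSeq were searched on both strands for 8 motifs, and the sequences printed above carry 8 of the 9 matches found. Il6 held an NF-kB motif (GGGATTTTCC, 44 to 35 bases before the start), found in 8.46% of 32851 windows. It also held a C/EBP motif, TTGCNNAA, on the opposite strand 128 to 121 bases before the start (10.8% of windows) and an AP-1 motif, TGANTCA, 249 to 243 bases before it (7.81%). NF-kB, C/EBP and AP-1 are factor families that drive inflammatory genes in macrophages. All 3 matches lie upstream of the cKO-specific peak, which begins 39 bases past the start. Only 11 bp of that peak lay in the window searched, so it was not examined for motifs beyond those bases.

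Il1a held an AP-1 match 12 to 6 bases before its start, and this match and its TATAAA lie inside the annotated gene span. The letters TATAAA of the TATA box, a core promoter element, were found in 13.6% of windows. They stood on the coding strand at Il1a, Il1b and Tnf, 32, 31 and 29 bases before the start. At Il18 they matched only on the opposite strand, 175 bases before the start, which is a match of letters and not a TATA box of that start. The complement of the miR-137-3p seed, AGCAATA, was found in 1 of the 6 windows, at Il1b, 157 to 151 bases before the start, and in 2.16% of all windows. No Il1b specific peak lies there, the nearer being the one 16787 bp upstream. The matched bases lie outside the annotated gene, so the match is not a site in the Il1b transcript. The PU.1 motif GAGGAAGT (3.20% of windows), the IRF motif (3.44%) and the CRE TGACGTCA (1.79%) matched in none of the 6, and Il12b had no match of any kind. None of the matches overlapped another.

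**Figure D4:**
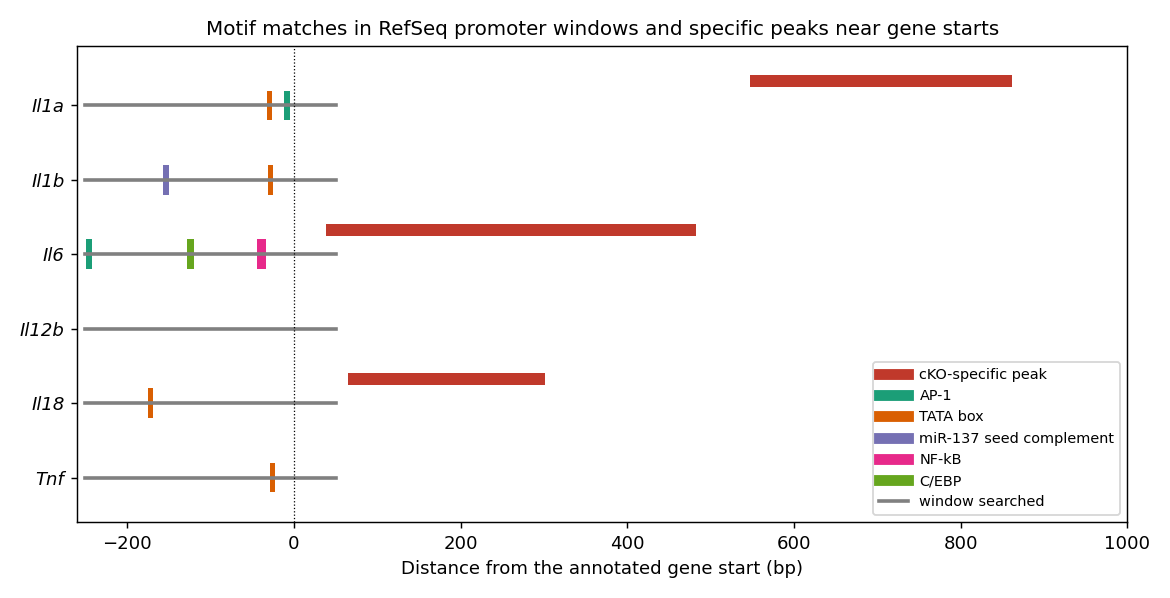
Motif matches (coloured blocks) in the promoter windows of 6 cytokine genes (grey lines), with cKO-specific peaks (red bars), by distance from the annotated start in bp. The peaks of Il6, Il18 and Il1a begin 39, 65 and 547 bp past the start, beyond every motif match. Only 11 bp of the Il6 peak and none of the Il18 and Il1a peaks lay in the windows searched.

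Receptors of these cytokines also carried specific peaks. Of 13 receptor genes 8 had a cKO-specific and 5 a cWT-specific peak (61.5% and 38.5%, where 22.7% and 11.6% of coding genes had one), with 15 and 5 peaks in all. Il18r1, the ligand-binding chain of the interleukin-18 receptor, had 4 cKO-specific peaks that are consecutive in the cKO numbering (305 to 308) over 28.1 kb, and 1 cWT-specific peak only 9 bp from the second of them. Il1r2, the decoy receptor of interleukin-1, had 3 cKO-specific and 1 cWT-specific peaks. The midpoint of a cKO-specific peak lay inside the gene, 222 bp upstream of an annotated start and 1179 bp from the nearer gene end. That peak was weak, with a signal of 6.81, at the 1.08th percentile of the cKO list. Il10ra had 2 and 1, and Il6ra 2 and 0. Il10ra encodes a receptor chain for interleukin-10, whose own gene had no specific peak.

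Among 8 genes of cytokine processing and release, 3 had a cKO-specific and 1 a cWT-specific peak (37.5% and 12.5%, where 22.7% and 11.6% of coding genes had one). Nlrp3, the sensor of the main inflammasome, had a 941 bp cKO-specific peak centred 93 bp past its start (chr11:59541192-59542132, signal 27.6, p-value 0.738), a further cKO-specific peak 2974 bp upstream, and a cWT-specific peak inside the gene 20353 bp from the start. Pycard, the inflammasome adaptor, had 1 cKO-specific peak centred 256 bp past its start (chr7:127993313-127993909, signal 20.4, p-value 0.504). Aim2, a DNA sensor, had 2 cKO-specific peaks that adjoin with the same signal of 17.2 and may be 1 region. Casp1, Casp4, Nlrc4, Gsdmd and Adam17 had no specific peak.

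Among 13 partner subunits and related cytokines, Il12a, Il33, Lif and Tgfb1 had 1 cKO-specific peak each and no gene had a cWT-specific one. These are 30.8% and 0% of the group, where 22.7% and 11.6% of coding genes had one. The Il12a peak lay 45859 bp from the gene that encodes the partner chain of p40 in interleukin-12. Of 4 genes for soluble inhibitors and mRNA decay, only Zc3h12a, which encodes an RNase that degrades Il6 mRNA, had a peak, a cWT-specific one 32583 bp upstream. Il1rn, Il18bp and Zfp36 had none. Of 5 transcription factor genes, Cebpb had 2 cKO-specific peaks and 1 cWT-specific peak, Nfkb1 and Rela 1 and 0, Nfkbiz 0 and 1, and Rel none. The Cebpb cKO-specific peaks adjoin with the same signal of 30.7, with midpoints 8893 and 8285 bp upstream of the gene (chr2:167679743-167680958). Over all 43 genes of these lists, 18 had a cKO-specific peak (41.9%) and 9 a cWT-specific peak (20.9%), where 22.7% and 11.6% of coding genes had one. The shares were much the same among the 25 markers of other cell types, at 44.0% and 20.0%.

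**Figure D5:**
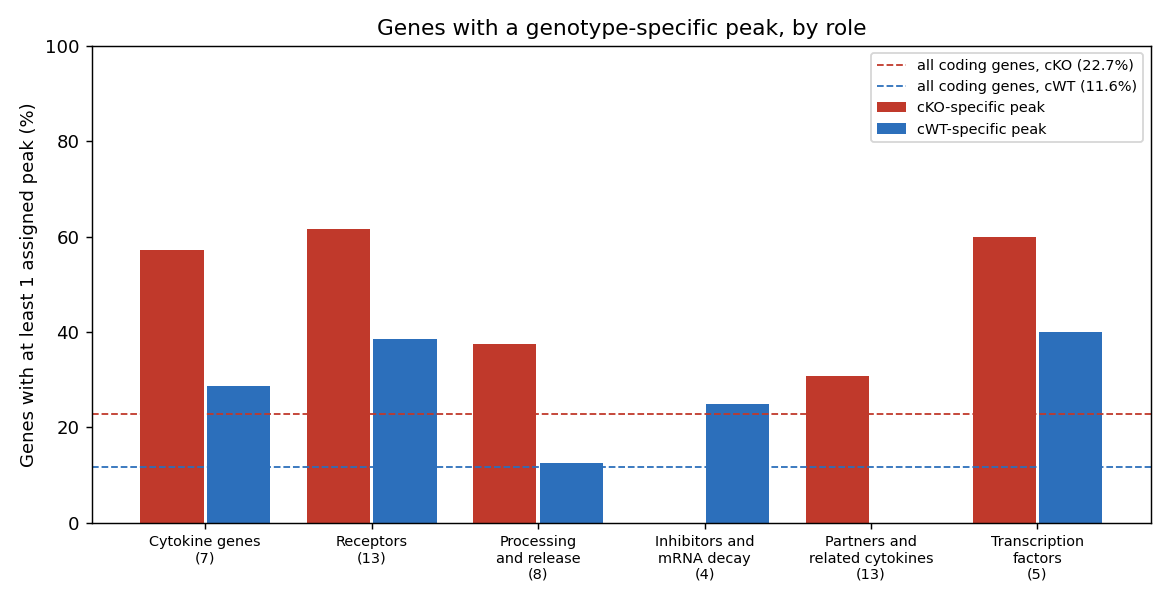
Percentage of genes with at least 1 assigned cKO-specific peak (red) or cWT-specific peak (blue), for the 7 cytokine genes and 5 groups of related genes with the number of genes in brackets; dashed lines give all coding genes (22.7% in cKO and 11.6% in cWT). The bars reach 57.1% and 28.6% for the cytokine genes, and 61.5% and 38.5% for the receptors.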

How the data were processed

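ATAC-seq peaks of 3 cKO and 3 cWT libraries, grouped by title, were analysed from 1 list of genotype-specific peaks per genotype. The submitters' processing notes name Bowtie2 2.4.4, HOMER 4.11, MACS2 2.2.7.1 and the builds GRCm38 and mm10. The role of each tool, any pooling of replicates and any shift of reads for the transposase are not stated there. The files have no header, so their columns were read from layout and values. The authors deposited a score per peak that falls as its p-value rises, a signal of unstated scale, a p-value whose test is not stated and an adjusted p-value. The signal was used only within a list. No counts or values per library were used, so depth is unknown. A deeper set of libraries can lengthen a list.

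Genes came from RefSeq (GRCm38.p6), and backgrounds from its 21627 coding genes on the 20 chromosomes with peaks; 11013 peaks were assigned. Promoter windows matched 6 of 7 members (not Il10). Assignment and motif search were tested on simulated data. Overlap needed 1 bp. The named genes were all members, their bordering genes and up to 4 genes with most peaks per related group; other genes named were chosen after their values were seen. Members and lists were chosen with earlier results of these data known. Alternatives covered p-value, score, merging, window, gene set, assignment and overlap. Python 3.11.15, pandas 2.3.3, scipy 1.17.1, bedtools 2.31.1 (in the assignment test) and matplotlib 3.10.9 were used.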

Additional observations from a re-analysis of the deposited data

How the results depend on the processing

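Merging peaks within 500 bp, assigning by the nearest gene span and assigning by the peak's nearer edge left the counts over the cytokine genes within 1.5 times the reported ones, but by nearest span Il18 kept 1 of its 2 cKO-specific peaks. With p-values up to 0.5, 1 cKO-specific peak (at Il6, 1 gene) and 0 cWT-specific peaks (0 genes) remained, a cKO share of 100%. Over the whole lists, only 12.1% of cKO-specific and 6.16% of cWT-specific peaks had such p-values. At or above the median score there was 1 cWT-specific peak at 1 gene, and in cKO Il1a had 0 peaks and Il1b 1. With a window of 10 kb there were 4 cKO-specific and 0 cWT-specific peaks (0 genes with one in cWT), a cKO share of 100%, and Il1b had 0 peaks. Inside the genes there were 3 and 0 (0 genes in cWT), again 100%. With all annotated genes competing 4 cKO-specific peaks and 1 cWT-specific peak (1 gene in cWT) were left. The overlapping pair at Il6 was lost (0 pairs) when at least 25% of the shorter peak had to be shared. No paired analysis was possible because neither list has a value for each library; for the same reason no replicate could be left out. The unknown depth limits every count.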

Other observations

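The peaks that leave the cytokine genes when noncoding genes and pseudogenes also compete lie nearest to A230098N10Rik upstream of Il6 (10542 bp from the cKO-specific peak, 10857 bp and 57055 bp from the cWT-specific peaks) and to the pseudogenes Gm18333 and Spcs2-ps around Il1b (8284 and 8530 bp from the cKO-specific peaks). The cKO-specific peaks at the starts of Il1a, Il6 and Il18 and the cWT-specific peak upstream of Il12b stayed with the cytokine gene under that choice, as did the Il18 peak 2425 bp upstream of its start.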
